A study of Mus musculus with 45 samples.

Results

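The older LINE-1 families of the mouse genome are the repeat families that the annotation places in the L1 family of LINE elements but that do not carry an L1Md name, the name given to the youngest mouse LINE-1 elements. Of 1146 repeat families counted in the RNA-seq libraries, 133 were LINE-1 families, and 127 of these were older LINE-1 families. They were divided by name alone. The L1M subgroup held 85 families, of which 25 carried a number after L1M, 9 were L1MA, 7 L1MB, 11 L1MC, 6 L1MD and 27 L1ME. The Lx subgroup held 28 families, namely 21 with Lx names, 4 L1_Mus and 3 L1_Mur families. The L1P subgroup held L1PB4 and L1P5 only, and the remaining 12 families (6 with HAL1 names, 3 with L1VL names, L1_Mm, L1_Rod and X9_LINE) are called other families below.

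LINE-1 elements are retrotransposons that copy themselves through RNA, and an intact copy encodes an RNA-binding protein and an enzyme with endonuclease and reverse transcriptase activity. Most copies in a genome are old, truncated and mutated, and can no longer move. The Lx, L1_Mus and L1_Mur families arose in the rodent and mouse lineages, whereas L1M families are older and shared among mammals. In mouse embryonic stem cells (mESCs), repressive chromatin marks on histone H3 lysine 9 and DNA methylation keep LINE-1 elements silent, and RNA reads from an old family can also come from copies that lie within transcripts of other genes.

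Polyadenylated RNA of 45 libraries in 15 groups of 3 was sequenced in 4 experiments, of which 3 used mESCs of a mixed BL6/129 background with a degron and mCherry on both alleles of Ehmt2 (EHMT2-dTAG), grown on mouse embryonic fibroblast feeders. EHMT2 is a methyltransferase that places H3K9me2, and the degrader dTAG-13 removes the tagged protein, so that every group of these 3 experiments, DMSO controls included, carried the tag. In the time course (12 libraries) the cells received DMSO or dTAG-13 for 24 h or 7 d, and in the washout experiment (9 libraries) they received DMSO for 15 d, dTAG-13 for 15 d, or dTAG-13 for 7 d and then DMSO for 8 d (Recovery), and each group of these experiments held the same 3 clones. In the sorting experiment (12 libraries) cells that also carried a GFP reporter driven by the MERVL endogenous retrovirus were given DMSO or dTAG-13 for 72 h and were sorted into GFP- mESCs and GFP+ 2-cell-like cells (2CLCs), 200000 cells in each library. In the Dppa4 experiment (12 libraries) 3 clones each of wild-type (WT) J1 mESCs and of Dppa4 knockout (KO) mESCs made with CRISPR/Cas9 received DMSO or UNC0638, an inhibitor of EHMT2 and of its partner EHMT1, for 48 h. DPPA4 is a chromatin protein that activates Dux and other genes of the 2-cell state.

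The unit throughout is the normalized count, a read count divided by the size factor of its library. For the time course, the washout and the sorting experiment each group was analysed here from the authors' mean alone, so no replicate error is given and no test was made of these values (the authors' own tests were not used), and a difference between means is called higher or lower when it passed 1.5-fold. The Dppa4 experiment has a value for each library and is the only one tested. Its libraries held 8399885 to 12710949 gene reads, and 2.41 to 5.99% of all reads fell on repeats. Of the repeat reads, 5.21 to 6.63% fell on the older LINE-1 families, which is 18754 to 48695 reads in a library. Dppa4 itself had between 700 and 920 normalized counts in the 6 WT libraries and 0 in the 6 KO libraries. The Ehmt2 transcript had authors' means of 616 (DMSO) and 609 (dTAG) at 24 h, and since the degrader acts on the protein this is no check of the degron. Markers of pluripotent stem cells were present in every group, with sums over 8 genes from 34097 to 94444 normalized counts. Reads that fit several places in the genome were put at a single random place, so values are uncertain between families of near-identical sequence, and levels of different families cannot be compared, because the counts are not per length or per copy.

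Not every older LINE-1 family had enough reads to follow. In the Dppa4 experiment 112 of 127 passed the read filter, and the 15 that did not had 3 to 75 reads over the 12 libraries. Among the families with group means, 103 (time course), 97 (washout) and 120 (sorting) had a mean of at least 10 over the groups of their experiment. Both L1P families were close to the limit of detection, with 29 reads each over the 12 libraries of the Dppa4 experiment, and only in the sorting experiment did they reach a mean of 10. The most abundant families of the Lx subgroup in the Dppa4 experiment were Lx8 (mean of 12 libraries 1842 normalized counts), L1_Mus1 (1748) and L1_Mus3 (1624). Those of the L1M subgroup were L1M4 (642), L1MEg (642) and L1M5 (593), and those of the other families were L1_Mm (240.4), L1_Rod (216) and L1VL2 (177).

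The first comparison asks how the older LINE-1 families differ between 2CLCs and the mESCs they were sorted from. In DMSO, 108 of the 120 families were higher in GFP+ cells and 0 were lower, against 86.8% higher and 0.768% lower of all 911 repeat families. Most repeat families were thus higher in GFP+ cells, and the median log2 ratio of all repeat families was 1.38, beside 1.45 for the older LINE-1 families. The subgroups differed in how far they stood from this median. The Lx subgroup had a median log2 ratio of 2.26 and 28 of its 28 families passed 2-fold, whereas the L1M subgroup had a median of 1.10 and 46 of 80 passed 2-fold. The 10 other families had a median of 1.61 and 8 of them passed 2-fold, and the 6 L1Md families, given for comparison, had a median of 3.51. Over all repeat families, 67.8% were more than 2-fold higher.

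The highest ratio belonged to Lx2A, with authors' means of 43.5 normalized counts in GFP- and 837 in GFP+ cells, an 18.8-fold difference that ranked 22 of 911 families. Lx3B went from 499 to 7858 (15.7-fold), Lx3_Mus from 571 to 7355 (12.9-fold), and L1VL4 of the other families from 541 to 4875 (9.00-fold). These 4 families stood within the top 64 of 911 families. At the other end, and among families with a mean of at least 50, L1ME3G had 120.8 and 141.1 normalized counts (1.17-fold), L1M3de 55.2 and 69.0 (1.24-fold), L1MEg 677 and 928 (1.37-fold) and L1MCc 55.9 and 79.0 (1.41-fold). All 4 carried L1M names. L1MEg, among the 3 most abundant L1M families, ranked 830 of 911. In the plot of the ratio against the level in GFP- cells, Lx and L1M families overlapped in counts. The part of the count level in these ratios was not tested.

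**Figure D1:**
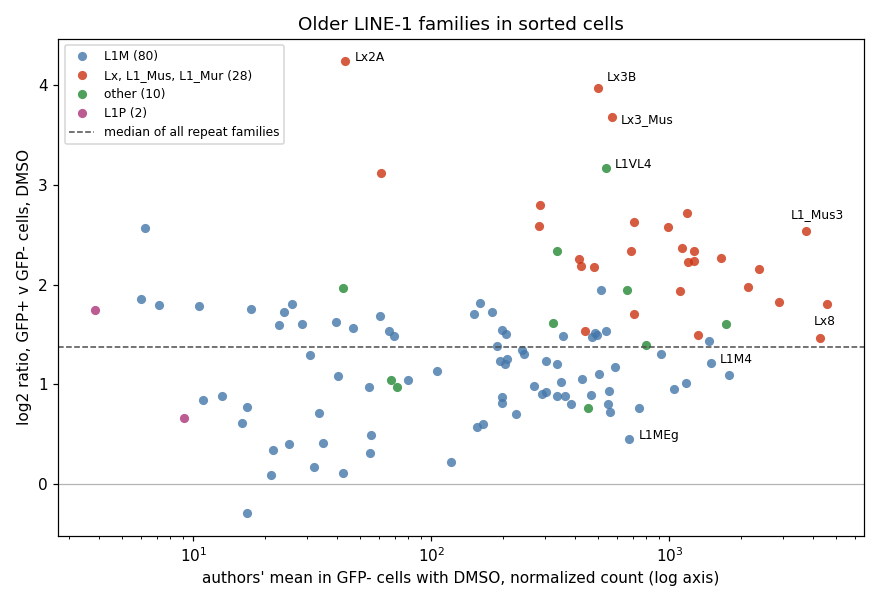
Each point is 1 older LINE-1 family of the sorting experiment, with the authors' mean normalized count in GFP- DMSO cells on a log x axis and the log2 ratio of GFP+ to GFP- cells in DMSO on the y axis, coloured by subgroup, and the dashed line is the median of all 911 repeat families (1.38). The 28 Lx families lie above 1 on the y axis, while the 80 L1M families spread around a median of 1.10.

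Within the L1M subgroup the median log2 ratio was 1.41 for the numbered families, 1.35 for L1MA, 1.24 for L1MD, 1.05 for L1MC, 0.95 for L1MB and 0.88 for L1ME. Within the Lx subgroup it was 2.58 for L1_Mus, 2.25 for L1_Mur and 2.24 for the Lx-named families. Among the Lx-named families, the 9 with Lx2 and Lx3 names had a median of 2.80 and the other 12 a median of 2.16. This split was chosen after the values were seen and is given as a description. For comparison, families of the LTR class had a median of 1.5, DNA transposons 0.95 and SINEs 0.68.

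In dTAG-treated cells the same comparison had 99 of 120 families higher and 2 lower in GFP+ cells, against 82.9% and 1.43% of all repeat families. The 2 lower families were L1ME5 (15.0 in GFP- and 7.17 in GFP+ cells) and L1M3b (26.2 and 13.9), both at low counts and named after their values were seen. The median log2 ratio was 1.5 (all repeat families 1.44), with 2.58 for the Lx subgroup, 1.18 for the L1M subgroup and 1.81 for the other families. Lx2A had 106.6 normalized counts in GFP- and 1816 in GFP+ cells (16.9-fold), Lx3_Mus 1236 and 14479 (11.7-fold), Lx3B 951 and 10211 (10.7-fold) and L1VL4 955 and 8223 (8.60-fold). The 4 families with the highest ratios were those named for DMSO. The lowest ratio at a mean of at least 50 was again in the L1M subgroup, with L1M3de at 51.8 and 40.4 normalized counts (0.78-fold). L1MA5A (181.4 and 198.4, 1.09-fold), L1MCc (64.8 and 73.5, 1.13-fold) and L1ME2z (179.4 and 239.5, 1.33-fold) followed. The L1P families had few counts, with L1P5 at 3.86 in GFP- and 15.3 in GFP+ cells in DMSO and at 12.7 and 10.7 in dTAG, and L1PB4 at 9.12 and 15.0 in DMSO and at 9.97 and 9.11 in dTAG. Both had their highest mean in GFP+ DMSO cells, on which the filter that kept them partly rests.

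The sum over all older LINE-1 families was 64953 normalized counts in GFP- and 240940 in GFP+ cells in DMSO (3.71-fold), and 84046 and 365528 in dTAG (4.35-fold). The Lx subgroup made up 56.6% of that sum in GFP- and 70.6% in GFP+ cells in DMSO, and 61.0% and 75.0% in dTAG. The Lx sum was 4.63-fold higher in GFP+ cells in DMSO, from 36745 to 170148 normalized counts, and the L1M sum was 2.25-fold higher, from 23158 to 52045. As a share of all repeat counts the older LINE-1 families went the other way, from 9.66% in GFP- to 7.19% in GFP+ cells in DMSO and from 10.5% to 6.38% in dTAG. MERVL-int and MT2_Mm, the internal part and the LTR of MERVL, together made up 54.5% and 64.8% of the repeat counts of GFP+ cells, and the cells were sorted by a reporter of that element. With these 2 families left out of the total, the share of the older LINE-1 families was 9.77% in GFP- and 15.8% in GFP+ cells in DMSO. Summed markers of the 2-cell-like state, a list of 10 genes that includes multi-copy Zscan4 and Usp17l genes, were 915 normalized counts in GFP- and 182721 in GFP+ cells in DMSO. Summed fibroblast markers, 8 genes, were 340 and 915, and their part in these ratios was not tested.

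The next comparison asks what loss of EHMT2 does to the older LINE-1 families in the whole culture. At 24 h of dTAG-13, 3 of 103 families were higher (Lx3B, Lx3A and L1MEj) and 2 lower (L1MD3 and L1ME3E), against 3.45% and 9.25% of all 724 repeat families. L1MEj (9.25 and 15.7 normalized counts in DMSO and dTAG) and L1ME3E (51.1 and 30.3) are named after their values were seen. The median log2 ratio was -0.17, beside -0.25 for all repeat families. Past 2-fold there were 0 families, against 0.829% higher and 1.1% lower of all repeat families. Within this small range the subgroups lay apart, with a median of 0.11 for Lx families (20 of 28 above 0), -0.21 for L1M families (6 of 65 above 0) and 0.00 for the other families. Lx3B had 148.9 normalized counts in DMSO and 263.4 in dTAG (1.76-fold, rank 11 of 724), and Lx3A had 131.6 and 202.2 (1.53-fold). Lx3_Mus (409.6 and 549.98, 1.34-fold) and L1VL4 (230.9 and 303.7, 1.31-fold) came next and did not pass 1.5-fold. The lowest ratios at a mean of at least 50 were those of L1MD3 (120.7 and 77.9, 0.65-fold), HAL1M8 (73.7 and 49.8, 0.68-fold), L1MB1 (91.9 and 63.1, 0.69-fold) and L1ME4b (133.7 and 94.9, 0.71-fold).

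At 7 d, 4 of 103 families were higher (Lx3B, Lx3_Mus, Lx3A and L1MEj) and 2 lower (L1MDa and L1ME2), against 7.18% and 8.98% of all repeat families. Lx3B stood out, with 169.3 normalized counts in DMSO and 499.7 in dTAG (2.94-fold, rank 12 of 724). Lx3_Mus had 434.9 and 760.1 (1.75-fold), Lx3A 147.5 and 235.8 (1.59-fold) and Lx2B2 782 and 1105 (1.41-fold). All 4 of the highest ratios at a mean of at least 50 thus belonged to Lx2 and Lx3 names. Past 2-fold there were 1 higher family (Lx3B) and 1 lower (L1MDa), against 3.04% and 1.93% of all repeat families. L1MDa had 233.9 and 116.0 (0.50-fold) and L1ME2 163.6 and 108.2 (0.66-fold), and HAL1 (228.7 and 170.3) and L1MC2 (83.8 and 62.3) were both at 0.75-fold. The median log2 ratio was -0.05 for the older LINE-1 families and -0.12 for all repeat families, with 0.21 for Lx (24 of 28 above 0) and -0.13 for L1M (15 of 65 above 0). L1Md families, for comparison, had a median of 0.38. The sum of 10 markers of the 2-cell-like state was 334 in DMSO and 7771 in dTAG at 7 d, and 199 and 2507 at 24 h. The fibroblast markers summed to 1376 and 2143 at 7 d, where 4 of the 6 with a mean of at least 10 were higher and 0 lower, and to 1634 and 2075 at 24 h, where 2 were higher and 2 lower. The part of either list in these ratios was not tested. In such bulk samples, fewer cells of a type and less RNA per cell cannot be told apart.

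The plot of group means shows the named families side by side over the 11 groups of these 3 experiments. Size factors were set separately in each experiment, so levels are to be read within an experiment only.

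**Figure D2:**
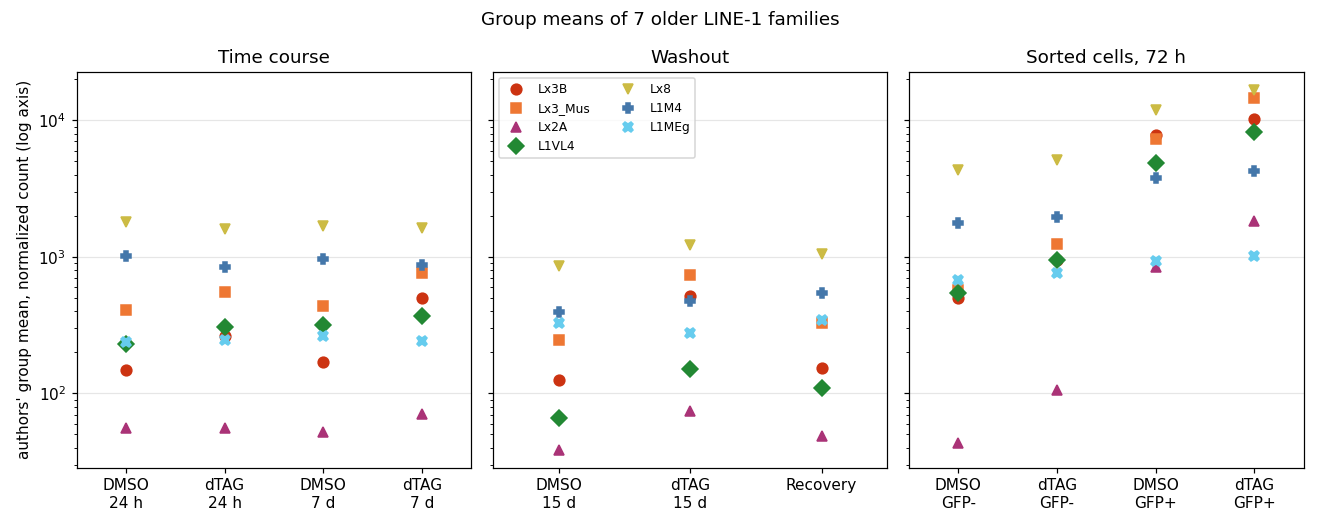
The authors' mean normalized count (y axis, log scale) is drawn for Lx3B, Lx3_Mus, Lx2A, L1VL4, Lx8, L1M4 and L1MEg in each of the 11 groups of the time course, washout and sorting experiments (x axis), with no error bars because the values are means alone. Lx3B is higher in dTAG than in DMSO at 24 h (263.4 and 148.9), 7 d (499.7 and 169.3) and 15 d (515.5 and 126.2), while L1MEg differs less than 2-fold between the groups within an experiment.

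The 15 d groups belong to the washout experiment, with its own DMSO control and size factors, so duration and experiment cannot be told apart. At 15 d of dTAG-13, 31 of 97 families were higher and 0 lower, against 25% and 1.25% of all 640 repeat families. Past 2-fold, 9 families were higher, against 9.84% of all repeat families. By subgroup the 31 were 16 of 28 Lx families, 11 of 59 L1M families and 4 of 10 other families. The median log2 ratio was 0.36 (all repeat families 0.27), with 0.70 for Lx (28 of 28 above 0), 0.28 for L1M (54 of 59 above 0) and 0.34 for the other families. Lx3B had 126.2 normalized counts in DMSO and 515.5 in dTAG (4.06-fold, rank 11 of 640). Lx3_Mus had 246.1 and 736.8 (2.99-fold), MusHAL1 44.8 and 111.7 (2.46-fold) and Lx3C 77.5 and 186.4 (2.39-fold). The 9 families with Lx2 and Lx3 names had a median of 1.17 and the other 12 Lx-named families 0.53. The lowest ratio at a mean of at least 50 was that of L1MEg, with 329.2 and 275.3 (0.84-fold), followed by L1M4c (53.0 and 50.5, 0.95-fold), L1MC5 (122.8 and 125.4, 1.02-fold) and L1MC5a (94.2 and 96.7, 1.03-fold).

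Recovery was compared with both 15 d groups, so the values below share these groups and are given side by side. Against dTAG for 15 d, 6 of 97 families were lower in Recovery (Lx3B, Lx3_Mus, Lx3C, Lx2A1, Lx3A and Lx2A) and 1 was higher, against 13.9% and 2.81% of all repeat families. The 1 higher family was L1ME3B (11.3 in dTAG and 23.6 in Recovery), named after its values were seen. Lx3B had 515.5 normalized counts in dTAG and 153.8 in Recovery (0.30-fold), Lx3_Mus 736.8 and 329.8 (0.45-fold), Lx3C 186.4 and 103.6 (0.56-fold) and Lx3A 181.0 and 115.1 (0.64-fold). All 6 lower families were Lx2 or Lx3 families, and 2 of them passed 2-fold, against 4.38% of all repeat families. The Lx subgroup had a median log2 ratio of -0.32 (25 of 28 below 0), the L1M subgroup 0.13, and all repeat families -0.05. The highest ratios at a mean of at least 50 were those of L1MA7 (90.0 and 117.6, 1.30-fold), L1MB5 (118.9 and 152.4, 1.28-fold), L1MEg (275.3 and 343.6, 1.25-fold) and L1VL2 (221.7 and 276.5, 1.25-fold).

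Against DMSO for 15 d, 15 of 97 families were higher in Recovery and 0 lower, against 10.3% and 0.625% of all repeat families. These were 8 L1M, 2 Lx and 5 other families, and 0 passed 2-fold, against 0.938% of all repeat families. The median log2 ratio was 0.41 for the older LINE-1 families and 0.25 for all repeat families, and the subgroups were close together at 0.39 (L1M), 0.38 (Lx) and 0.59 (other). L1MA9 had 63.3 normalized counts in DMSO and 107.7 in Recovery (1.69-fold), L1VL4 65.5 and 110.1 (1.67-fold), MusHAL1 44.8 and 74.5 (1.65-fold) and L1MC4a 104.1 and 165.3 (1.58-fold). At a mean of at least 50, L1MEc (116.8 and 112.3, 0.96-fold) and L1MA8 (104.9 and 102.7, 0.98-fold) were lowest. Lx4B (122.1 and 126.9) and L1MEg (329.2 and 343.6) came next, both at 1.04-fold. When expressed relative to the median of all repeat families, 2 of 97 families passed 1.5-fold in this comparison, and 13 of 97 did so for 15 d of dTAG-13. The share of all repeat families on this centred scale was not counted.

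The sum over the Lx subgroup was 11961 normalized counts in DMSO, 18146 in dTAG and 15451 in Recovery, and the sum over the L1M subgroup was 5554, 6660 and 7232. Lx counts were thus highest in dTAG and L1M counts in Recovery. L1Md families, for comparison, summed to 10755 in DMSO, 19202 in dTAG and 14833 in Recovery. Their sum was 1.79-fold that of DMSO in dTAG, beside 1.52-fold for Lx. In Recovery it was 0.77-fold that of dTAG, beside 0.85-fold for Lx. The markers of the 2-cell-like state summed to 618 in DMSO, 14884 in dTAG and 964 in Recovery, and the fibroblast markers to 2524, 3358 and 998. The part of either list in these ratios was not tested.

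The plot of log2 ratios by subgroup sets all 9 comparisons of group means together. In each of the 3 dTAG comparisons of unsorted cells, the median of the Lx subgroup lay above that of all repeat families.

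**Figure D3:**
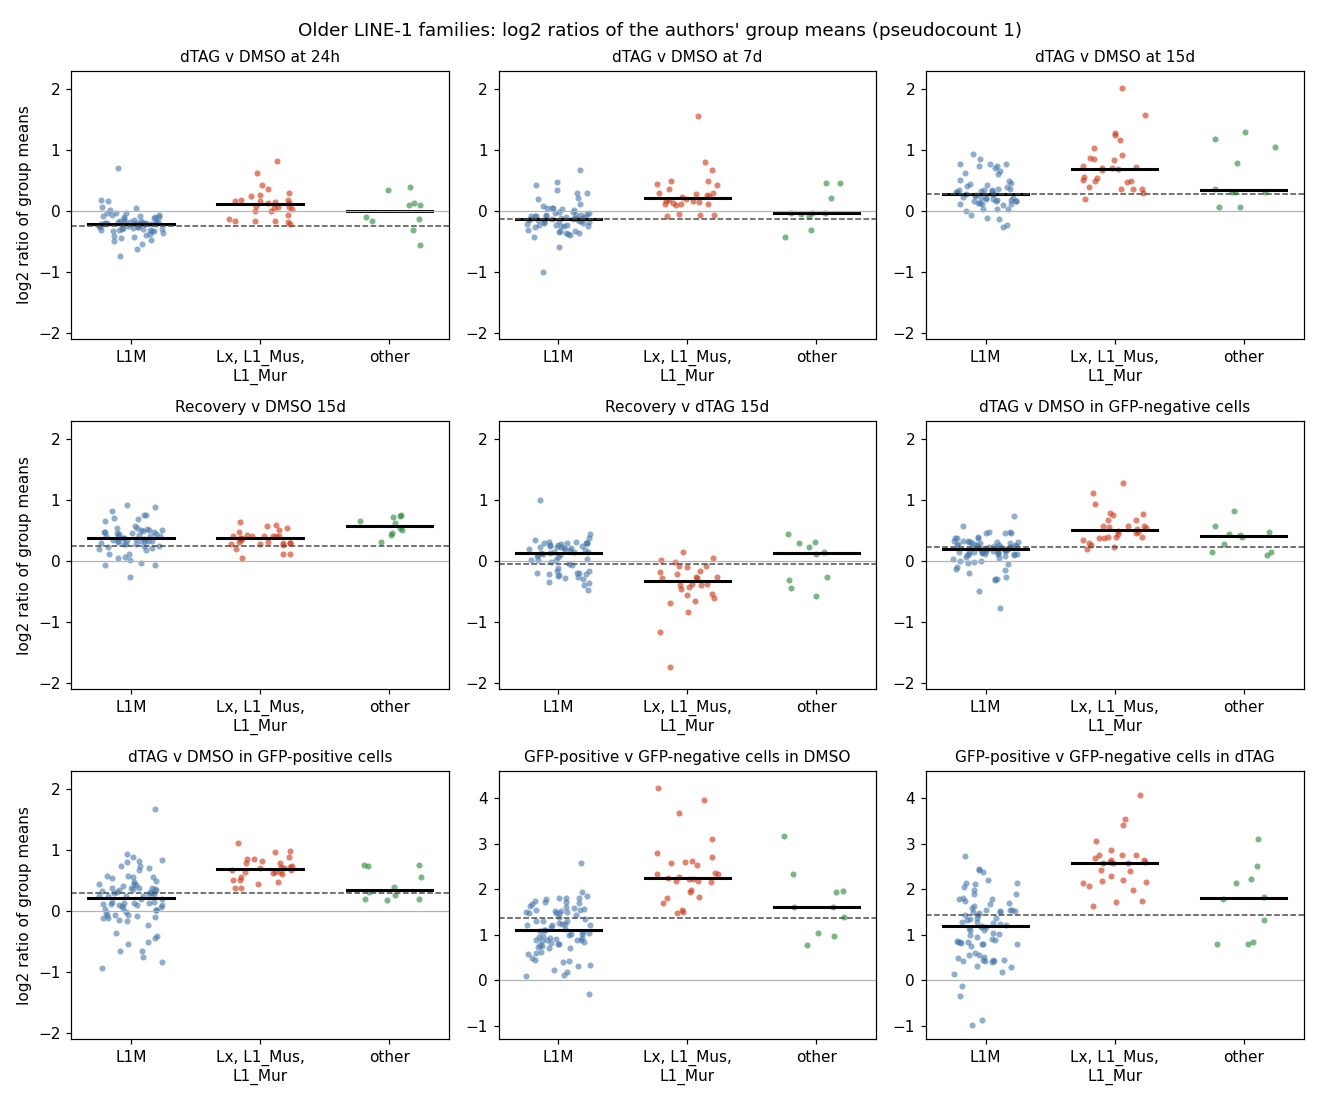
Each panel is 1 comparison of the authors' group means, each point is the log2 ratio (y axis) of 1 older LINE-1 family in the L1M, Lx or other subgroup (x axis), the thick bar is the subgroup median and the dashed line is the median of all repeat families in that experiment, and the 2 panels of GFP+ against GFP- cells have a wider y scale. L1P families are not drawn. The Lx median is above the dashed line in every panel but that of Recovery against dTAG, where it is -0.32 and the line is at -0.05.

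In the sorting experiment the effect of dTAG-13 can be read within each cell type. In GFP- cells, 11 of 120 families were higher after 72 h of dTAG-13 and 1 was lower, against 18.7% and 0.988% of all 911 repeat families. Past 2-fold there were 3 higher families, against 7.35% of all repeat families. The 1 lower family was L1MEh (10.9 in DMSO and 6.02 in dTAG), named after its values were seen. The median log2 ratio was 0.26 (all repeat families 0.24), with 0.51 for Lx, 0.20 for L1M and 0.41 for the other families, and 28 of 28 Lx families were above 0. The sum of the L1Md families, for comparison, was 2.08-fold higher with dTAG-13 and that of the Lx subgroup 1.39-fold. Lx2A had 43.5 normalized counts in DMSO and 106.6 in dTAG (2.42-fold), Lx3_Mus 571 and 1236 (2.16-fold), Lx3B 499 and 951 (1.91-fold) and L1VL4 541 and 955 (1.76-fold). At a mean of at least 50, these 4 were also the families with the highest ratios of GFP+ to GFP- cells. The comparison of GFP+ and GFP- cells in DMSO uses the same GFP- DMSO means, so these rankings are not independent. The lowest at a mean of at least 50 were L1ME3F (30.8 and 24.8, 0.81-fold) and L1ME3A (198.7 and 174.0, 0.88-fold). L1M3de (55.2 and 51.8, 0.94-fold) and L1MDa (301.6 and 291.2, 0.97-fold) came next. The L1P family L1P5 had 3.86 in DMSO and 12.7 in dTAG, the highest ratio of this comparison (2.83-fold) but at few counts, and L1PB4 had 9.12 and 9.97. The markers of the 2-cell-like state summed to 915 in GFP- DMSO and 11834 in GFP- dTAG cells. The fibroblast markers summed to 340 and 662, and 4 of the 5 with a mean of at least 10 were higher. The part of either list in these ratios was not tested.

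In GFP+ cells, 34 of 120 families were higher with dTAG-13 and 6 were lower, against 24.9% and 2.96% of all repeat families. Past 2-fold there were 2 higher families (L1MEd and Lx2A), against 5.93% of all repeat families. The 34 held 21 of 28 Lx families and 10 of 80 L1M families, and the median log2 ratio was 0.69 for Lx, 0.23 for L1M and 0.36 for the other families, beside 0.30 for all repeat families. The sum of the L1Md families, for comparison, was 1.41-fold higher with dTAG-13 and that of the Lx subgroup 1.61-fold. L1MEd had the highest ratio, from 576 to 1840 normalized counts (3.19-fold, rank 4 of 911). Lx2A went from 837 to 1816 (2.17-fold), Lx3A from 1951 to 3870 (1.98-fold) and Lx3_Mus from 7355 to 14479 (1.97-fold). The lowest at a mean of at least 50 were L1M3de (69.0 and 40.4, 0.59-fold), L1ME3B (164.8 and 128.9, 0.78-fold), L1MA5A (232.1 and 198.4, 0.86-fold) and L1MD2 (716.6 and 640.6, 0.89-fold). Relative to the median of all repeat families, 7 families were higher and 12 lower past 1.5-fold in GFP+ cells. The share of all repeat families on this centred scale was not counted. L1P5 (15.3 in DMSO and 10.7 in dTAG) and L1PB4 (15.0 and 9.11) had lower means with dTAG-13 in GFP+ cells, and L1PB4 was among the 6 lower families. Of the group means of L1PB4 only that of GFP+ DMSO cells was above 10. The filter that kept L1PB4 thus rests on the group it is compared with here. The markers of the 2-cell-like state summed to 182721 and 336491 in GFP+ cells and the fibroblast markers to 915 and 1548, and the part of either list in these ratios was not tested.

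The Dppa4 experiment asks whether the response to EHMT1 and EHMT2 inhibition needs DPPA4. UNC0638 in WT cells gave higher fitted values for most older LINE-1 families, but none passed the test. The log2 fold change was above 0 in 107 of 112 families, as it was in 687 of all 783 repeat families, and the median was 0.58 beside 0.43. By limma, 0 of 112 older LINE-1 families and 0% of all repeat families had an adjusted p under 0.05. For comparison, MERVL-int did not pass either, with a log2 fold change of 2.10 (SE 0.52, limma adjusted p = 0.15). L1Md_A had a log2 fold change of 0.71 (SE 0.47, limma adjusted p = 0.47). The smallest adjusted p of the older LINE-1 families was 0.31. At an unadjusted p under 0.05 there were 26 of them, beside 85 of all 783 repeat families. On a scale set by the repeat median, 6 of the older LINE-1 families were at an unadjusted p under 0.05. edgeR and DESeq2 on the recovered reads also called 0, with 27 and 30 families at an unadjusted p under 0.05. In 50 of 112 families all 3 UNC0638 libraries lay above all 3 DMSO libraries, which is 44.6% against 27.3% of all repeat families. These were 37 of 74 L1M, 11 of 28 Lx and 2 of 10 other families. L1MEg was the 1 family with all 3 UNC0638 libraries below DMSO, against 0.511% of all repeat families.

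L1MD had 145.4, 137.8 and 164.3 normalized counts in WT DMSO and 279.1, 217.7 and 280.2 in WT UNC0638 libraries, a log2 fold change of 0.79 (SE 0.26, limma adjusted p = 0.31). Lx8b had 418.9, 394.8 and 371.5 in DMSO and 724.6, 528.8 and 751.3 in UNC0638, a log2 fold change of 0.74 (SE 0.26, limma adjusted p = 0.31). In both families the groups did not overlap, and the second UNC0638 library was the lowest of its group. L1ME3E had 2.33, 1.23 and 5.24 in DMSO and 25.5, 22.4 and 21.6 in UNC0638, so that its fold change of 2.75 on the log2 scale (SE 0.95, limma adjusted p = 0.31) rests on very few reads in DMSO. Among the abundant families, L1_Mus3 had 1153, 1410 and 1371 in DMSO and 2457, 1597 and 2472 in UNC0638, and L1M4 had 500.3, 527.7 and 572.6 against 989.7, 747.5 and 871.1. L1MEg had 623.6, 665.4 and 701.9 in DMSO and 596.1, 508.3 and 596.4 in UNC0638, a log2 fold change of -0.23. The markers of the 2-cell-like state summed to 141, 455 and 2087 in WT DMSO and 1111, 1416 and 8518 in WT UNC0638 libraries, which overlap, and their part in the fold changes was not tested.

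In KO cells the median log2 fold change with UNC0638 was 0.01 for the older LINE-1 families and 0.06 for all repeat families. Without the KO libraries numbered 3, an alternative chosen after seeing the data, these medians were 0.43 and 0.34. With all libraries, 0 of 112 passed by limma (0% of all repeat families). At an unadjusted p under 0.05 there were 5, beside 43 of all 783 repeat families. On the recovered reads edgeR and DESeq2 called 0 of the older LINE-1 families, with 5 and 7 at an unadjusted p under 0.05. In 4 families all 3 UNC0638 libraries were above DMSO and in 3 they were below, against 4.98% and 1.66% of all repeat families. L1M4a2 had 14.7, 11.2 and 17.4 normalized counts in KO DMSO and 37.7, 36.6 and 41.0 in KO UNC0638 libraries, a log2 fold change of 1.37 (SE 0.47, limma adjusted p = 0.81). L1M4c had a log2 fold change of -0.96 (SE 0.37) and L1M3e of -1.37 (SE 0.54), both at the same adjusted p of 0.81. The difference between the UNC0638 effects in KO and WT was tested as well. Its median was -0.54 beside -0.38 for all repeat families, and by limma 0 of 112 passed (0% of all repeat families). At an unadjusted p under 0.05 there were 13, beside 39 of all 783 repeat families, while edgeR and DESeq2 called 0, with 11 and 13. L1M4c had a difference of -1.90 (SE 0.53, limma adjusted p = 0.57), L1ME3E of -4.10 (limma adjusted p = 0.65) and L1_Mm of -1.36 (SE 0.47, limma adjusted p = 0.79).

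Between KO and WT cells in DMSO, 0 of 112 older LINE-1 families passed by limma, where 0.255% of all repeat families passed as higher and 0.383% as lower. At an unadjusted p under 0.05 by limma there were 3 of these families, beside 52 of all 783 repeat families. For the older LINE-1 families edgeR and DESeq2 called 0, with 2 and 4 at an unadjusted p under 0.05. The median log2 fold change was 0.02. Lx2 had 465.4, 487.1 and 757.0 normalized counts in WT and 294.5, 220.1 and 402.8 in KO libraries, a log2 fold change of -0.90 (SE 0.29, limma adjusted p = 0.28). Its groups did not overlap, as was so for 4 families lower in KO and 2 higher, against 4.98% and 5.87% of all repeat families. L1ME3E and L1ME3F had log2 fold changes of 2.34 and 2.27 at few reads. Among the L1Md families, for comparison, L1Md_Gf (-2.53) and L1Md_T (-1.72) passed.

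With UNC0638, 2 of 112 older LINE-1 families were lower in KO than in WT cells by limma, against 1.15% lower and 0.128% higher of all repeat families. L1_Mm had 393.6, 244.8 and 585.2 normalized counts in WT UNC0638 and 117.7, 127.9 and 108.3 in KO UNC0638 libraries, a log2 fold change of -1.70 (SE 0.33, limma adjusted p = 0.0040). Its DMSO values were 203.6, 255.8 and 250.9 in WT and 191.8, 116.2 and 289.0 in KO cells, which overlap. L1M4c had 118.9, 112.1 and 104.6 in WT UNC0638 and 51.5, 33.3 and 32.3 in KO UNC0638 libraries, a log2 fold change of -1.53 (SE 0.37, limma adjusted p = 0.039). In DMSO L1M4c had 36.1, 57.8 and 90.9 in WT and 70.4, 66.2 and 90.5 in KO cells. For both families the UNC0638 groups were apart, while the difference from the DMSO comparison did not pass, as given above. Without the third WT UNC0638 library L1_Mm had an adjusted p of 0.055 and L1M4c of 0.11, and the call of L1M4c was also lost without any 1 of the libraries WT DMSO 2 (0.059), WT UNC0638 1 (0.21) or 2 (0.096), KO DMSO 1 (0.052), and KO UNC0638 2 (0.081) or 3 (0.094).

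**Figure D4:**
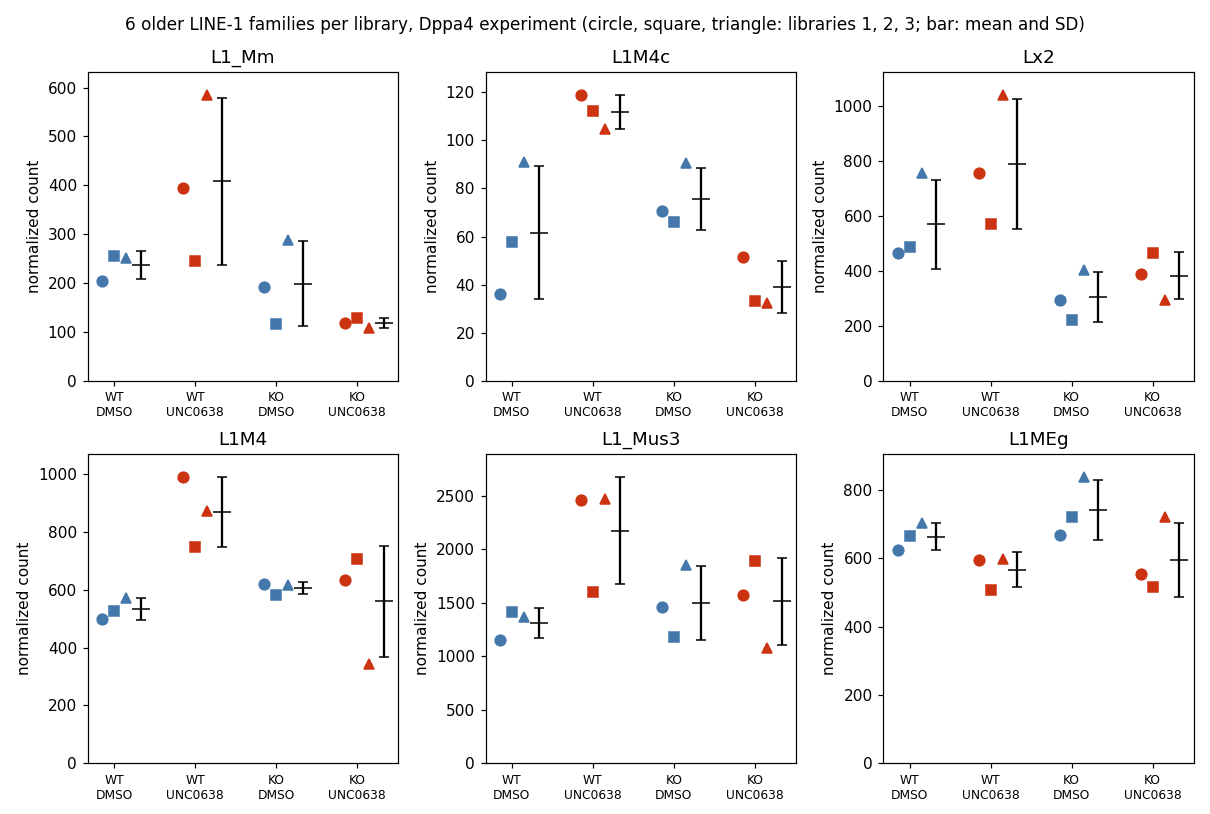
Normalized counts (y axis) of L1_Mm, L1M4c, Lx2, L1M4, L1_Mus3 and L1MEg in the 12 libraries of the Dppa4 experiment, by group (x axis), with circles, squares and triangles for the libraries numbered 1, 2 and 3 and bars for the mean ± SD of 3 libraries. The KO UNC0638 libraries of L1_Mm (108.3 to 127.9) and of L1M4c (32.3 to 51.5) lie below all WT UNC0638 libraries.

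The median over all 112 families in this comparison was -0.51, beside -0.34 for all repeat families, with -0.50 for L1M, -0.49 for Lx and -0.88 for the other families. In 24 families all 3 KO libraries lay below all 3 WT libraries, which is 21.4% against 14.2% of all repeat families, and in 0 all lay above, against 2.04%. These 24 were 16 L1M, 4 Lx and 4 other families. Lx2 (log2 fold change -1.02, limma adjusted p = 0.092) and L1M3e (-1.85, limma adjusted p = 0.098) did not pass. The L1Md families L1Md_A (-2.59), L1Md_Gf (-3.12) and L1Md_T (-2.30) passed, as did MERVL-int (-4.53). All 10 markers of the 2-cell-like state were at 0 in the 6 KO libraries. The fibroblast markers summed to 1842 to 2807 normalized counts in WT and 1080 to 1840 in KO libraries, and their part in the fold changes was not tested.

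Summed over all older LINE-1 families, the libraries held 23354 ± 1346 (SD, n = 3) normalized counts in WT DMSO, 33855 ± 6716 in WT UNC0638, 23984 ± 5257 in KO DMSO and 25058 ± 6510 in KO UNC0638. The single libraries were 21820, 23899 and 24342 in WT DMSO and 36460, 26227 and 38878 in WT UNC0638, so that these groups did not overlap. In KO cells they were 23256, 19129 and 29566 in DMSO and 26478, 30742 and 17955 in UNC0638, which overlap with each other and with WT DMSO. The third KO library was the highest of its group in DMSO and the lowest in UNC0638. Without both of these libraries, an alternative chosen after seeing the data, the median log2 fold change was -0.28 for KO against WT in UNC0638. For the difference of effects it was -0.16, and the medians of all repeat families were -0.12 and -0.09. These libraries are the extremes of their groups, so the direction of this shift follows from the choice and is given as a description. The L1M sum was 8340 ± 182, 11558 ± 1589, 8688 ± 853 and 8851 ± 2357 in WT DMSO, WT UNC0638, KO DMSO and KO UNC0638, and the Lx sum was 13875 ± 1225, 20464 ± 4779, 14198 ± 4160 and 15207 ± 3905 in the same order (SD, n = 3 each). L1Md families had 22351 ± 6319, 34990 ± 15602, 11298 ± 6197 and 8989 ± 357. The means of the older families in WT DMSO and KO DMSO differed by less than the SD of either group, whereas the L1Md means differed by more than either SD.

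**Figure D5:**
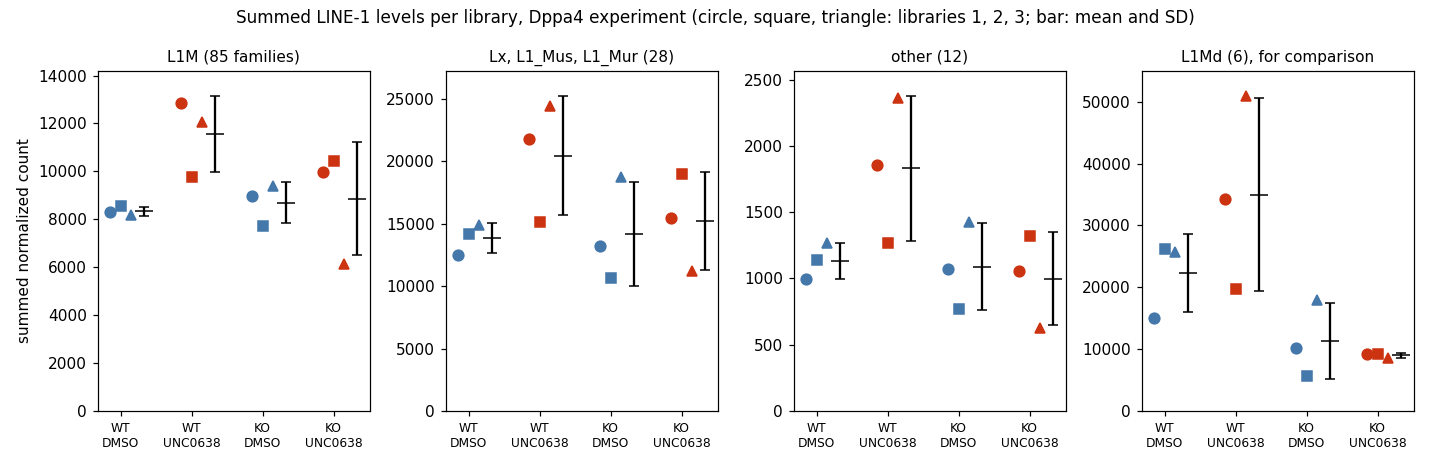
Summed normalized counts (y axis) of the L1M, Lx and other subgroups of the older LINE-1 families, and of the L1Md families for comparison, in each library of the 4 groups (x axis) of the Dppa4 experiment, with circles, squares and triangles for libraries 1, 2 and 3 and bars for mean ± SD. L1M sums in WT UNC0638 (11558 ± 1589) lie above those in WT DMSO (8340 ± 182), and in KO cells the 2 groups overlap.

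A list of 30 genes that silence or restrict LINE-1 elements was followed beside them. By limma, 0 of 30 passed for UNC0638 against DMSO in WT cells and 0 of 30 in KO cells. Of all genes 0% passed in WT, and 0.504% (higher) and 0.0811% (lower) in KO cells. In DMSO, KO cells had 1 of 30 genes higher and 2 lower than WT, against 2.39% and 4.25% of all genes. The higher gene was Samhd1, which limits LINE-1 reverse transcription (log2 fold change 0.82, limma adjusted p = 0.022). The lower genes were the de novo DNA methyltransferase Dnmt3b (-1.09, limma adjusted p = 0.029) and Tex19.1, a germline gene that restrains retrotransposons (-2.32, limma adjusted p = 0.0017). With UNC0638, 3 of 30 were lower in KO and 0 higher, against 2.71% and 1.77% of all genes, namely Dnmt3b (-1.22, limma adjusted p = 0.021), Tex19.1 (-1.45, limma adjusted p = 0.030) and Cbx5, which encodes the H3K9 methylation reader HP1 alpha (-1.01, limma adjusted p = 0.034).

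In the experiments with group means, Dnmt3a and Dnmt3b were the genes of this list past 1.5-fold after 24 h and after 7 d of dTAG-13, both higher, where 7.58% and 8.99% of all genes were higher. Dnmt3a had 853 and 1733 normalized counts in DMSO and dTAG at 24 h and 1394 and 2172 at 7 d. Dnmt3b had 562 and 1095 at 24 h and 1203 and 1927 at 7 d. At 15 d, 0 of 30 passed 1.5-fold, where 8.56% of all genes were higher and 3.38% lower. In Recovery, Mphosph8, which encodes a subunit of the HUSH silencing complex, was higher than in DMSO (6.36% of all genes), and Tex19.1 was lower than in dTAG (10.7% of all genes).

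Between sorted cells in DMSO, 5 of the 30 genes were higher in GFP+ cells (Dnmt3l, Dnmt3a, Atf7ip, Tex19.1 and Trex1) and 9 were lower (Mov10, Dnmt1, Cbx5, Apobec3, Ehmt2, Rnaseh2b, Suv39h2, Samhd1 and Cbx3), against 22.9% and 20% of all genes. Tex19.1 had 901 normalized counts in GFP- and 3302 in GFP+ cells, and Ehmt2 had 116 and 64.6. Among the lower genes are the maintenance DNA methyltransferase Dnmt1 and the RNA helicase Mov10, which binds LINE-1 RNA. In dTAG, 5 were higher (Dnmt3l, Trim28, Dnmt3a, Atf7ip and Tex19.1) and 6 lower (Mov10, Dnmt1, Cbx5, Apobec3, Suv39h2 and Samhd1), against 20.9% and 18.7% of all genes. With dTAG-13, Dnmt3a and Tex19.1 were higher and Dnmt3l lower in GFP- cells, where 12.4% of all genes were higher and 7.29% lower, and Dnmt3a alone of the 30 was higher in GFP+ cells (10.5% of all genes).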

How the data were processed

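RNA-seq values of 45 libraries were used as the authors deposited them. The authors trimmed reads with Trim Galore 0.6.7, aligned them to mm10 with STAR 2.7.10 without introns, kept 1 random place for reads with several, and counted genes (GENCODE vM25) and repeat families with TEcounts at its defaults. The deposited signal values are counts divided by DESeq2 size factors (DESeq2 1.34.0, R 4.1.0, per the submitters' processing notes) over genes and repeats together, given for each library in the Dppa4 experiment and as group means elsewhere. Deposited tables of the authors' own comparisons hold log2 fold changes and p-values and were not used.

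The families, gene lists and rules were chosen with earlier results of these data known. In the Dppa4 experiment 100% of the values gave whole reads (tolerance 0.01). limma-trend (limma 3.58.1, R 4.3.3) was run on log2(normalized count + 1) in 1 model of 4 groups, over 783 repeat families and separately 17258 genes kept by the expression filter of edgeR 4.0.16, two-sided, with Benjamini-Hochberg adjustment over the families or genes of a contrast. A family passed at an adjusted p under 0.05. edgeR's quasi-likelihood test and DESeq2 1.42.0 on the recovered reads were alternatives, and the script was tested on simulated data. Group means were compared as log2 ratios with a pseudocount of 1, over families with a mean of at least 10, and genes by the same rule. Fold changes on these scales understate the change of features with low counts. Random placement can move reads between near-identical families, and the strand setting of the counting is not given in the sources used here.

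Named were the families that passed or, if none did, the 3 with the smallest p in each contrast of the Dppa4 experiment, the 3 most abundant of each subgroup, and the 4 highest and 4 lowest ratios of each comparison of means among families with a mean of at least 50. Libraries are clones in the Dppa4 experiment. The labels do not say that a number marks the same clone in both treatments. Deviations of same-numbered libraries from their group means were compared over 402 repeat families. The correlations were r = 0.37, 0.12 and 0.58 in WT and 0.16, -0.17 and -0.30 in KO libraries. Differently numbered libraries had r from -0.48 to 0.26 in WT and from -0.39 to 0.46 in KO. Over 11665 genes, same-numbered libraries had r = 0.39, 0.14 and 0.68 in WT and 0.39, -0.23 and -0.0054 in KO. In WT, each DMSO library correlated most with the UNC0638 library of its own number, over repeats and over genes. In KO this was not so for every library, so these values do not settle the pairing. Consensus sequences of the families were not used here.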

Additional observations from a re-analysis of the deposited data

How the results depend on the processing

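Of the counts of older LINE-1 families under the alternatives, 145 stayed within 1.5 times the reported count and 32 did not. The 145 include every reported count of 0 that stayed at 0, as most did in the Dppa4 contrasts without a passing family. A stricter threshold cannot change a count of 0, so this tally does not measure how stable the other counts were. Each alternative changed 1 choice. With 2-fold in place of 1.5-fold the counts were 0 (24 h, reported 5), 2 (7 d, 6), 9 (15 d, 31), 0 (Recovery against DMSO, 15), 2 (Recovery against dTAG, 7), 3 (dTAG in GFP- cells, 12) and 2 (dTAG in GFP+ cells, 40). With ratios centred on the median of all repeat families they were 13 at 15 d, 2 for Recovery against DMSO, 6 (4 higher, 2 lower) in GFP- and 19 (7 higher, 12 lower) in GFP+ cells with dTAG, and 46 (25 higher, 21 lower) for GFP+ against GFP- cells in DMSO, reported as 108. With no minimum mean they were 16 at 24 h, 16 at 7 d, 23 for Recovery against DMSO and 15 for Recovery against dTAG. With a minimum mean of 50 they were 3 at 24 h and 7 for Recovery against DMSO, and with a pseudocount of 10 they were 2 and 9. Apart from the 2-fold counts, shares of all repeat families under these alternatives were not counted.

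For KO against WT in UNC0638 (2 families), the count was 1 at an adjusted p under 0.01, 4 by DESeq2, 1 with no read filter and 1 on a scale set by the repeat median, and 0 to 3 when any 1 library was left out. Of all repeat families, 17 of 783 were lower by DESeq2, 7 of 1072 with no read filter and 7 of 783 on the repeat median scale. In the same order, 2, 1 and 3 were higher. The other contrasts had 0 families when any 1 library was left out. Leaving out both KO libraries numbered 3, an alternative chosen after seeing the data, gave 1 family for KO against WT in DMSO (Lx2, limma adjusted p = 0.047, the lowest of its alternatives, which reached up to 0.686). Over all alternatives the adjusted p of L1_Mm ranged from 5.35e-05 to 0.0547 and that of L1M4c from 0.00533 to 0.215, the latter missing the threshold with no read filter (0.062) and on the repeat median scale (0.12) among others. Among the named families the direction turned for L1MEg and Lx8, both in KO against WT in UNC0638. L1MEg (reported 0.06) ranged from -0.0819 to 0.157 when 1 library was left out, was -0.0155 without WT UNC0638 replicate 2, and was -0.0819 without both KO libraries numbered 3. Lx8 (reported -0.29) ranged from -0.470 to 0.0126 when 1 library was left out, was 0.0294 on the repeat median scale, and was 0.0126 without both KO libraries numbered 3. The cause was not tested.

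With a replicate block by number, 2 older LINE-1 families passed for KO against WT in UNC0638. With a block by clone, 0 passed for UNC0638 against DMSO in WT or KO cells or for their difference. Of all 783 repeat families 3 then passed for UNC0638 in WT cells, against 0 in the main fit. The block by clone cannot examine KO against WT, because each clone has 1 genotype. Outside the Dppa4 experiment no block was fitted, although the labels give the same 3 clones in every group of the time course and the washout, because these and the sorting experiment were analysed as group means, and leaving out replicates was not run there for the same reason. Depth limits the families with few reads, among them both L1P families.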
